A study of Homo sapiens with 4 samples.

Results

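ITGA2B, CD36, CD9 and CD53 encode 4 surface proteins that are used to follow platelets, their megakaryocyte precursors and other blood cells. They were taken by symbol from the deposited expression table, and all 4 were found among its 3200 genes. RNA was measured in 4 libraries of K562, an established human leukaemia line with the BCR-ABL fusion kinase that can take on erythroid or megakaryocytic features. The parental library (K562 NC) was of untreated wild-type K562 cells, and the resistant library (K562 IMR) was of the imatinib-resistant line K562/IMR. Imatinib blocks that kinase and is used to treat chronic myeloid leukaemia. The R-Exo and S-Exo libraries were of K562 cells given, for 48 h, vesicles that were read from the series title and design as exosomes of imatinib-resistant and of sensitive cells. Each group had 1 library, so every value below stands without an error, a replicate check or a test. The labels do not say whether the resistant line is 1 clone or whether imatinib was present at harvest.

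ITGA2B encodes integrin alpha IIb (CD41), which pairs with integrin beta 3 to form the fibrinogen receptor of platelets. CD36 encodes a scavenger receptor that binds thrombospondin, oxidised lipoproteins and long-chain fatty acids, and it is carried by platelets, monocytes and erythroid precursors. CD9 and CD53 encode tetraspanins, membrane proteins with 4 transmembrane segments that gather integrins and other receptors into patches. CD9 is abundant on platelets and on extracellular vesicles, while CD53 is found mainly on white blood cells. As K562 cells are pushed towards megakaryocytes, ITGA2B is a usual marker of the change.

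The genes lie on 4 different chromosomes in GENCODE release 29 (GRCh38), matched by Ensembl identifier. ITGA2B (ENSG00000005961) spans chr17:44372180-44389505 on the minus strand. The others are on the plus strand, CD36 (ENSG00000135218) at chr7:80369575-80679277, CD9 (ENSG00000010278) at chr12:6199715-6238271 and CD53 (ENSG00000143119) at chr1:110871188-110899928. No other gene model overlaps ITGA2B or CD53. CD9 is overlapped by 1 small RNA model on the other strand. The CD36 model overlaps 4 models on the other strand, among them the coding gene GNAT3, and the protocol does not state that strand was kept, so reads of these models could not be told apart.

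The 250 bases before a RefSeq start of each gene (GRCh38.p14) are shown so that the gene that was higher in the resistant library can be set beside the 3 that were lower. All 4 genes were matched by symbol. Where RefSeq gives several starts, the one shared with most coding transcripts of GENCODE release 29 was taken. Capitals mark GATA motifs (AGATAA or AGATAG or TGATAA or TGATAG) and the ETS motif GGAAGT, searched on both strands. GATA and ETS factors are known regulators of megakaryocyte genes, and the motifs were chosen with these windows in view. The windows lie at chr17:44389650-44389899 (minus strand), chr7:80638266-80638515, chr12:6200150-6200399 and chr1:110872898-110873147 (plus strand) in the order of the lines.
ITGA2B: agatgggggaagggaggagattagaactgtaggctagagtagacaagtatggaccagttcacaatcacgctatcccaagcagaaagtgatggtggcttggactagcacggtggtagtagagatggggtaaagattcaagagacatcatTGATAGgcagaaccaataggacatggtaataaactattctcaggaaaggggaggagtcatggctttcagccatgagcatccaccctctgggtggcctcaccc
CD36: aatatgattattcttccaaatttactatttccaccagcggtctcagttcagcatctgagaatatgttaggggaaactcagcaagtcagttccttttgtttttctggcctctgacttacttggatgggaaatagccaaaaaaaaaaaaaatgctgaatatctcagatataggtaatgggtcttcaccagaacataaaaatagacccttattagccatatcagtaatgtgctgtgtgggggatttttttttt
CD9: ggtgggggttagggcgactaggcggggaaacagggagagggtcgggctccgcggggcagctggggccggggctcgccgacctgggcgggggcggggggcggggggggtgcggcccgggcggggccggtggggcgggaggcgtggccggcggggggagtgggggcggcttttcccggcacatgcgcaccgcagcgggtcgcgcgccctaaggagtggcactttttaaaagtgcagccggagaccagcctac
CD53: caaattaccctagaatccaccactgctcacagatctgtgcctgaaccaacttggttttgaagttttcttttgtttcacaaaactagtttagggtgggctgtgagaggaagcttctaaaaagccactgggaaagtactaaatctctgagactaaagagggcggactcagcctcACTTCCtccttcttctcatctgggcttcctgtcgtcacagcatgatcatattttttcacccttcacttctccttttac

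The ITGA2B window held 1 GATA motif, TGATAG, at bases 102 to 97 before the start, and no ETS motif. The CD53 window held 1 ETS motif on the other strand, printed as ACTTCC, at bases 78 to 73, and no GATA motif. Neither motif was in the CD36 or CD9 window. Windows of other RefSeq starts of these genes did hold them: 2 of the 6 CD36 starts had GATA motifs (2 and 3 of them), and of the 4 CD9 starts 1 had a GATA and an ETS motif and 1 a GATA motif. Of 35116 windows of the same length before RefSeq starts, 22.3% held a GATA motif and 19.5% the ETS motif. The CD9 window was made up of G and C to 76.8%, against 48.8% for ITGA2B, 44% for CD53 and 36% for CD36. These letters are a description of the windows. Only the hexamers given above were searched, so a window without a match can still hold other forms of the GATA and ETS motifs. The start that the cells used is not known from the table, which gives 1 value per gene: CD36 has 6 RefSeq starts, CD9 4, CD53 2 and ITGA2B 1, and that of ITGA2B lies 144 bases from the nearest coding start in GENCODE.

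The values are FPKM, fragments scaled to gene length and to library size, so levels of different genes are compared here per length. The table holds genes that its authors had selected as differentially expressed, by a rule that the labels do not state, and every share below describes such preselected genes. Over all 3200 genes on the log2(FPKM + 1) scale, parental correlated with S-Exo at a Pearson's r of 0.977. For the resistant and R-Exo libraries r was 0.974, and for the other 4 pairs it was 0.729 to 0.736. Genes are not independent points, and these values describe 4 libraries. The library labelled R-Exo, of K562 cells given vesicles, therefore stood with the resistant line and not with the K562 cells it is labelled as. It had 677 FPKM of ABCB1, the drug efflux pump gene, against 778 in resistant and 0.222 in parental. Whether its values come from vesicle-treated cells or from cells of the resistant line was not tested. The resistant and parental values below do not rest on it.

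ITGA2B was the member that was higher in the resistant line. Its level was 2.06 FPKM in parental and 2.45 in S-Exo, against 18.5 in resistant and 16.4 in R-Exo. The low values were those of parental and S-Exo, and the high values those of resistant and R-Exo, with none between 2.45 and 16.4. The ratio was 9.0 for resistant over parental and 6.68 for R-Exo over S-Exo. ITGA2B ranked 1036 of the 3200 genes by level in parental and 224 in resistant.

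CD36 was lower in the resistant line. Its level was 36.2 FPKM in parental and 31.2 in S-Exo, against 8.45 in resistant and 9.60 in R-Exo. It was thus high in the libraries where ITGA2B was low. Parental was 4.29-fold above resistant, and S-Exo was 3.25-fold above R-Exo. CD36 ranked 99 by level in parental and 434 in resistant, so it stayed in the upper part of the table, with 86.4% of genes below it in resistant.

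CD9, the tetraspanin of platelets and vesicles, was at most 3.13 FPKM and was lowest in the resistant line. Its level was 3.13 FPKM in parental and 2.94 in S-Exo, against 0.267 in resistant and 0.336 in R-Exo. Of the 4 genes it had the largest plain ratios among those that were lower, 11.7 for parental over resistant and 8.76 for S-Exo over R-Exo. It ranked 809 by level in parental and 2636 in resistant, where 17.6% of the genes lay below it. Values this far under 1 FPKM rest on few fragments, and the depth of the libraries is not given, so no interval can be put on these ratios.

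CD53, the tetraspanin of white blood cells, had the highest level of the 4 genes in each library. Its level was 81.6 FPKM in parental and 79.6 in S-Exo, against 29.4 in resistant and 23.7 in R-Exo. Parental and S-Exo again held the high values and resistant and R-Exo the low ones. The ratio was 2.78 for parental over resistant and 3.36 for S-Exo over R-Exo. In bulk RNA, fewer cells that express a gene and less RNA per cell cannot be told apart, for CD53 as for the other members.

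**Figure D1:**
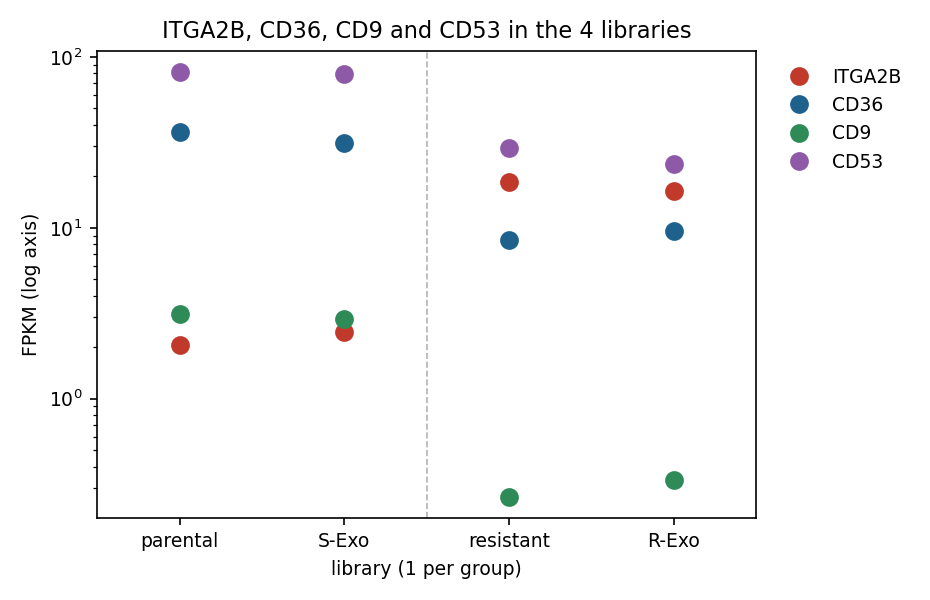
Level of each gene in FPKM (log axis) in the 4 libraries, with 1 point per library and a dashed line between the pair parental and S-Exo and the pair resistant and R-Exo. ITGA2B goes from 2.06 and 2.45 FPKM on the left to 18.5 and 16.4 on the right, while CD36, CD9 and CD53 are all lower on the right.

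The order of the levels changed with these differences. In parental it was CD53, CD36, CD9 and ITGA2B from high to low, and S-Exo had the same order, with CD9 and ITGA2B at 2.94 and 2.45 FPKM. In resistant and in R-Exo the order was CD53, ITGA2B, CD36 and CD9. No spread between replicates exists to say which neighbours in these orders differ. CD36 stood 17.6-fold above ITGA2B in parental and 12.7-fold in S-Exo, whereas ITGA2B stood 2.19-fold above CD36 in resistant and 1.70-fold in R-Exo. CD53 was 26.1-fold above CD9 in parental and 27.1-fold in S-Exo, against 110-fold in resistant and 70.5-fold in R-Exo. The 4 genes together came to 123 FPKM in parental and 116 in S-Exo, against 56.6 in resistant and 50.0 in R-Exo. ITGA2B was 1.67% of that sum in parental and 32.7% in resistant.

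For comparison with the rest of the table, log2(FPKM + 1) was subtracted between pairs of libraries. A gene was compared if either library had at least 1 FPKM, and an absolute difference of at least 1 was counted as higher or lower. This scale understates differences of low genes. In resistant against parental, 1 member was counted as higher and 3 as lower, where 28% of the 2151 compared genes were higher and 18.1% lower. The difference was 2.67 for ITGA2B, and 97.8% of the compared genes lay below it. It was -1.98 for CD36, -1.71 for CD9 and -1.44 for CD53, with 3.44%, 5.16% and 7.53% of the compared genes below them. With a pseudocount of 0.1 the CD9 difference was -3.14.

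In R-Exo against S-Exo, the same gene was higher and the same 3 were lower, where 23.2% of the 2154 compared genes were higher and 21.2% lower. The difference was 2.33 for ITGA2B, -1.60 for CD36, -1.56 for CD9 and -1.71 for CD53. This comparison shares no library with resistant against parental. Of the 602 genes higher in resistant, 403 (66.9%) were also higher in R-Exo, which is 80.8% of the 499 genes higher there. Of the 390 genes lower in resistant, 276 (70.8%) were also lower in R-Exo, which is 60.5% of the 456 lower there. A like result in both comparisons was thus usual in this table and is not particular to the 4 genes.

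**Figure D2:**
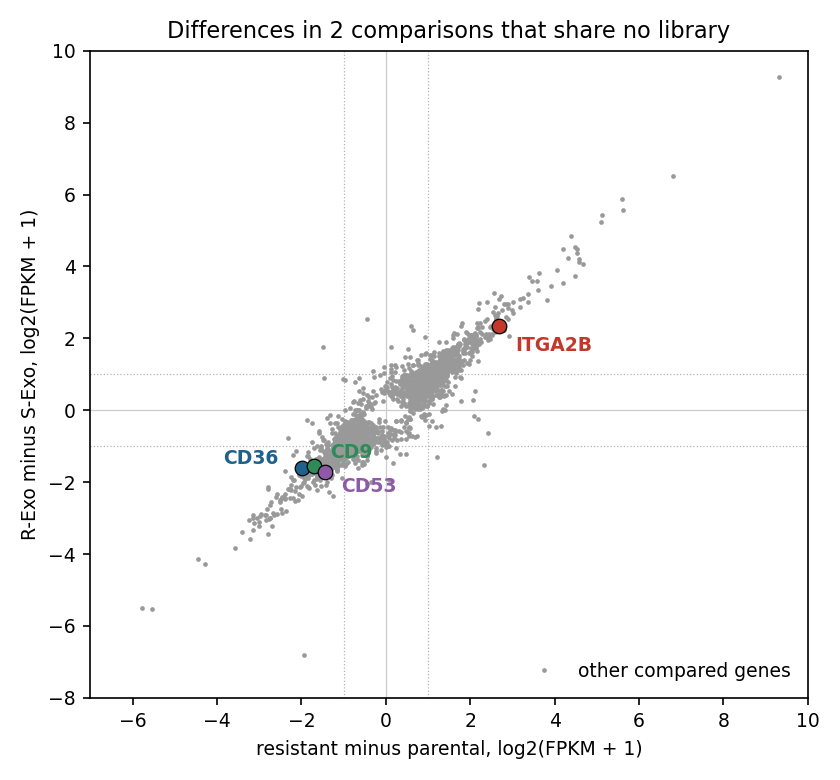
Difference of each gene compared in both (1986 genes) in resistant minus parental (x axis) and in R-Exo minus S-Exo (y axis), both on the log2(FPKM + 1) scale, with dotted lines at -1 and 1. ITGA2B lies in the upper right and CD36, CD9 and CD53 lie close together in the lower left, along the band that the other genes form.

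R-Exo against parental uses the untreated cells as the control and shares a library with each of the comparisons above. ITGA2B was higher (2.51 on the log2 scale) and CD36 (-1.81), CD9 (-1.63) and CD53 (-1.74) were lower, beside 23.5% of the 2115 compared genes higher and 21.5% lower. In S-Exo against parental none of the 4 was counted, beside 1.63% of 1723 genes higher and 1.22% lower. The differences were 0.18 for ITGA2B, -0.21 for CD36, -0.07 for CD9 and -0.04 for CD53. In R-Exo against resistant none was counted either, beside 1.6% of 1879 genes higher and 1.22% lower. Here ITGA2B differed by -0.17, CD36 by 0.17, CD9 by 0.08 and CD53 by -0.30. In these last comparisons the plain ratio of the higher to the lower library was at most 1.26, reached by CD9 in R-Exo against resistant.

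The median difference of all compared genes was 0.42 in resistant against parental, 0.21 in R-Exo against S-Exo and 0.34 in R-Exo against parental. Relative to that shift, ITGA2B was higher by 2.25 and 2.12 in the first 2 of these and CD36 (-2.40 and -1.82), CD9 (-2.13 and -1.78) and CD53 (-1.86 and -1.92) were lower. The direction of the 4 genes was the same as without the shift. The median is that of genes preselected as differentially expressed, so it need not be 0 in the cells. Setting it to 0 is thus a check of how calls depend on scaling and not a better scaling. Over the table, however, the share of higher genes among those counted went from 60.7% to 26.8% in resistant against parental, from 52.3% to 32.8% in R-Exo against S-Exo and from 52.3% to 26.9% in R-Exo against parental. After quantile normalization the first of these shares was 45.6%.

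Of a list of 60 megakaryocyte and platelet genes, 21 were in the table, and the other 39 have no value here. The beta 3 partner of ITGA2B, encoded by ITGB3, was among those 39. Without ITGA2B, CD36 and CD9, 12 of the list could be compared in the resistant line against parental, and 5 of them were higher and 1 lower, with a median of 0.84 beside 0.42 over all compared genes. Of all compared genes, 28% were higher and 18.1% lower. GP6, which encodes the collagen receptor of platelets, had 4.85 FPKM in parental and 4.18 in S-Exo, against 20.3 in resistant and 19.1 in R-Exo. PTGS1, which encodes cyclooxygenase 1, the enzyme that leads to thromboxane in platelets, had 0.186, 0.165, 4.37 and 4.68 FPKM in the same order. SPARC, which encodes a secreted matrix protein held in platelet granules, had 4.90, 5.77, 23.4 and 23.2 FPKM. The other higher genes were ESAM and CD226, which encode adhesion molecules. With the median difference set to 0, 4 of the 12 were higher and 3 lower: CD226 was no longer past the limit, and GP1BB (-1.14) and PRKAR2B (-1.06), which encodes a regulatory subunit of protein kinase A, were lower. Over the table, 276 of 2151 compared genes were then higher and 755 lower.

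The lower gene was SELPLG, which encodes the P-selectin ligand of white blood cells, with 8.27 FPKM in parental and 10.1 in S-Exo, against 1.21 in resistant and 0.959 in R-Exo. The 2 subunits of the von Willebrand factor receptor in the table were low. GP1BA had 0.105 to 0.428 FPKM over the 4 libraries, and GP1BB had 1.78 FPKM in parental and 2.25 in S-Exo, against 0.690 in resistant and 0.595 in R-Exo. In R-Exo against S-Exo, 15 listed genes other than the members were compared, and 5 of them were higher and 3 lower, with a median of 0.61 beside 0.21 over all. Of all compared genes, 23.2% were higher and 21.2% lower there. Platelet genes were thus found on both sides, as the members and the genes of the whole table were. The sum over the 21 listed genes was 150 FPKM in parental and 153 in S-Exo, against 153 in resistant and 141 in R-Exo. PRKAR2B made up 75.9 FPKM of it in parental and 48.2 in resistant, and CD36 36.2 and 8.45. GP6, SPARC and ITGA2B went the other way, so like sums do not mean that the listed genes were alike.

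**Figure D3:**
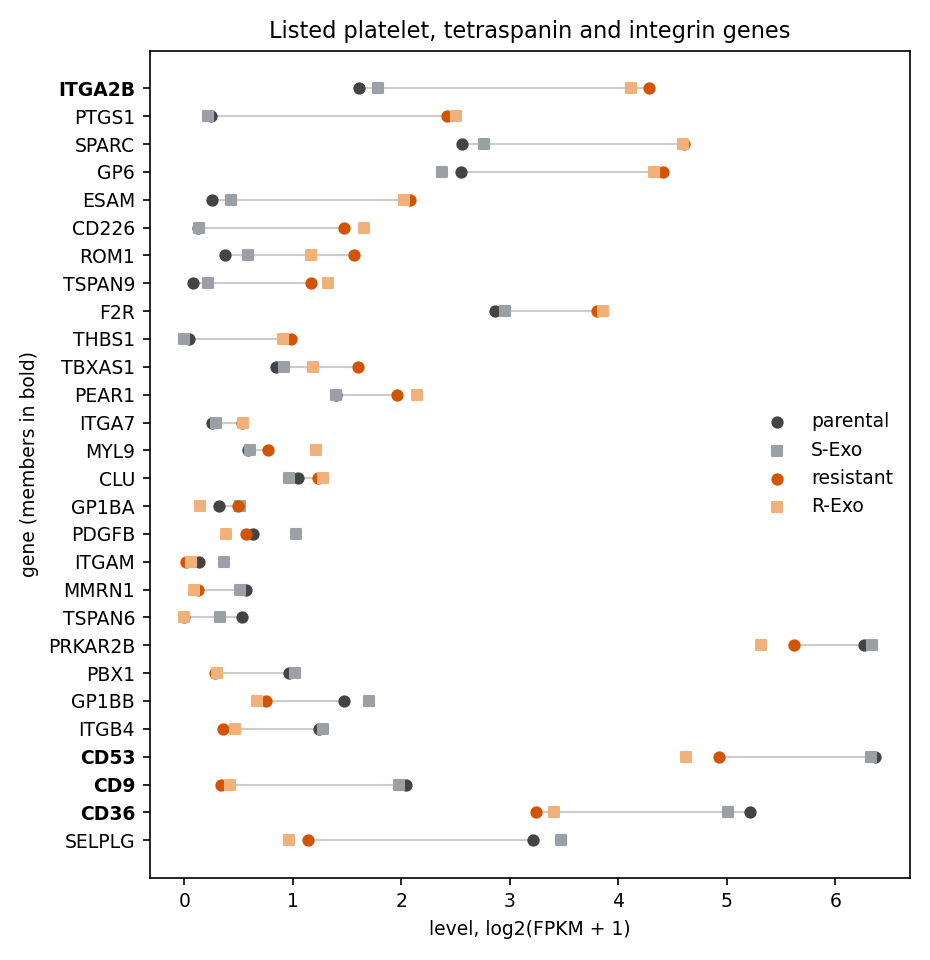
Level on the log2(FPKM + 1) scale of the listed megakaryocyte, platelet, tetraspanin and integrin genes, with 1 point per library and a line from parental to resistant, sorted by the resistant minus parental difference. ITGA2B is at the top, and CD53, CD9 and CD36 are near the bottom above SELPLG.

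The tetraspanin family has 33 genes in the list, of which 5 were in the table. CD9 and CD53 were counted as lower in resistant against parental, and TSPAN9 and ROM1 as higher. TSPAN9, a tetraspanin known from platelets, had 0.0593 FPKM in parental and 0.166 in S-Exo, against 1.25 in resistant and 1.51 in R-Exo. ROM1, a photoreceptor disc protein gene, had 0.296, 0.50, 1.95 and 1.25 FPKM in the same order. Both of these were near the 1 FPKM limit. Their differences of 1.09 and 1.19 in resistant against parental went to 0.67 and 0.77 when the median difference was set to 0. None of the family was then counted as higher, beside 276 of 2151 compared genes higher and 755 lower over the table. After quantile normalization TSPAN9, at 0.96, was not counted and ROM1 was. TSPAN6, listed at 0 in resistant and R-Exo, had 0.443 FPKM in parental and 0.261 in S-Exo. The summed level of the 5 tetraspanins was 85.6 FPKM in parental and 32.9 in resistant, most of it CD53.

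Of 24 genes for proteins that tetraspanins are known to bind, 4 were in the table. PRKCA, which encodes protein kinase C alpha, had 5.79 FPKM in parental and 6.13 in S-Exo, against 172 in resistant and 118 in R-Exo. CD44, the hyaluronan receptor gene, had 1.66, 1.22, 7.80 and 6.97 FPKM. KIT, the stem cell factor receptor gene, had 1.39, 1.80, 0.350 and 0.276 FPKM, which was not counted in resistant against parental (-0.82) and was lower in R-Exo against S-Exo (-1.13). With the median difference set to 0, KIT was lower in the first comparison as well (-1.24). CR2 was under 1 FPKM in all 4 libraries.

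Of the 24 integrin genes in the list, 4 were in the table, and ITGA2B was the highest of them in each library. ITGB4, the beta subunit of the laminin receptor of epithelia, had 1.37 FPKM in parental and 1.43 in S-Exo, against 0.281 in resistant and 0.387 in R-Exo. Its difference of -0.89 in resistant against parental missed the limit and passed it at -1.31 with the median difference set to 0. ITGA7, a laminin receptor subunit gene of muscle, and ITGAM, that of complement receptor 3, stayed under 1 FPKM in all 4 libraries, with 0.457 and 0.292 as their highest values. Among 30 genes for proteins that link integrins to the cell interior, 4 were in the table. FERMT2, which encodes the integrin activator kindlin-2, had 0.337 FPKM in parental and 0.412 in S-Exo, against 8.71 in resistant and 9.97 in R-Exo. SYK, a tyrosine kinase gene that acts downstream of platelet receptors, had 5.12 and 4.33 FPKM in parental and S-Exo and was listed at 0 in resistant and R-Exo. PTK2B, a focal adhesion kinase family gene, had 9.15 FPKM in parental and 19.1 in resistant, a difference of 0.99 that lay just under the limit.

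CD36 was set beside 51 other genes for its ligands, for scavenger receptors and for the uptake and handling of fatty acids and lipoproteins. Of the whole list, 14 were in the table, and 6 others than CD36 were compared between resistant and parental. None was higher and 2 were lower, with a median of -0.84 beside 0.42 over all compared genes. Of the 6, 4 were below 0, while ACSL6 (0.78) and CPT2 (0.38) were above 0 and under the limit. Of all compared genes, 28% were higher and 18.1% lower. SLC27A2, which encodes a fatty acid transporter and acyl-CoA synthetase, had 19.1 FPKM in parental and 19.0 in S-Exo, against 1.56 in resistant and 1.59 in R-Exo. APOE, which encodes a lipoprotein ligand of several such receptors, had 12.2, 12.6, 1.02 and 0.459 FPKM. ACSL1, a long-chain acyl-CoA synthetase gene, had 8.55, 7.88, 4.03 and 3.25 FPKM, a difference of -0.93 that passed the limit at -1.35 with the median difference set to 0. With that shift 4 of the 6 were lower and none higher, beside 755 of 2151 compared genes lower and 276 higher over the table. In R-Exo against S-Exo, 7 others were compared, with 0 higher and 3 lower, beside 23.2% of all compared genes higher and 21.2% lower. THBS1, the gene of the CD36 ligand thrombospondin 1, went the other way at a low level, with 0.974 FPKM in resistant, 0.878 in R-Exo, 0.0313 in parental and a value listed at 0 in S-Exo.

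Transcription factor genes of megakaryocytes and red cells were represented by 5 of 27, and GATA1, FLI1 and RUNX1 were not among the 5. ETS1, an ETS factor gene, was listed at 0 in parental and had 0.0393 FPKM in S-Exo, 5.76 in resistant and 6.17 in R-Exo, and it was counted as higher. LMO2, which encodes a bridging partner of GATA1, had 14.2, 10.8, 24.7 and 29.7 FPKM, with 0.76 in resistant against parental and 1.38 in R-Exo against S-Exo. LYL1, a basic helix-loop-helix factor gene, had 81.8 FPKM in parental and 81.1 in S-Exo, against 47.9 in resistant and 38.4 in R-Exo. It was not counted in resistant against parental (-0.76) but was lower in R-Exo against S-Exo (-1.06), and in the former as well with the median difference set to 0 (-1.18), as was IKZF1 (-1.19). MECOM (2.73 FPKM in parental and 6.36 in resistant) was not counted in either comparison.

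Markers of other blood cells differed between the same libraries. Of 36 erythroid genes 11 were in the table, and 8 were higher and 0 lower in resistant against parental, with a median of 2.09, beside 28% of all compared genes higher, 18.1% lower and a median of 0.42. With the median difference set to 0, and also after quantile normalization, 7 were higher and 1 was lower: HBZ, an embryonic globin gene, was under the limit (0.78 and 0.99), and TFRC, the transferrin receptor gene, was lower (-1.39 with the median difference set to 0, and just past the limit after quantile normalization). Over the table, 276 of 2151 compared genes were higher and 755 lower with the median difference set to 0, and 447 and 534 after quantile normalization. In R-Exo against S-Exo 8 erythroid genes were higher and 1, TFRC, lower, beside 23.2% of all compared genes higher and 21.2% lower. The summed level of the 11 erythroid genes was 789 FPKM in parental and 830 in S-Exo, against 1603 in resistant and 1721 in R-Exo. Of these sums HBZ made up 480 and 533 FPKM, against 1101 and 1253. Of 23 lymphoid genes 2, CD3D and CD22, were in the table, with a sum of 0.974 FPKM in parental and 13.1 in resistant. Of 20 monocyte and granulocyte genes 3 were in the table, with sums of 1.49 and 4.94 FPKM. CD33 had 0.543 FPKM in parental and 4.71 in resistant, while AZU1 (0.849 and 0.218) and ITGAM (0.0966 and 0.0145) went the other way. Of 15 endothelial and stromal genes 4 were in the table, with sums of 4.52 and 1.18 FPKM, and COL1A2 was listed at 0 in parental and S-Exo and ACTA2 in R-Exo. ACTA2 had 3.73 FPKM in parental and 0.0365 in resistant, and CLDN5 0.537 and 0.0355. COL1A1 (0.246 and 0.813) and COL1A2 (0.300 in resistant) went the other way. The part of these genes in the members' differences was not tested.

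Neighbours in the genome were counted beside each gene, where 28% of all compared genes were higher and 18.1% lower in resistant against parental. In R-Exo against S-Exo 23.2% were higher and 21.2% lower. With the median difference set to 0, 276 of 2151 compared genes were higher and 755 lower in resistant against parental. The same setting gave 331 of 2154 higher and 678 lower in R-Exo against S-Exo. The sets of neighbours are small, and differences between them were not tested. Within 2 Mb of the start of ITGA2B lay 9 other genes of the table, and of the 4 that were compared in the resistant line against parental 1 was higher and 0 were lower. The higher one was SLC4A1, which encodes the anion exchanger band 3 of red cells and starts 121 kb away. It had 0.983 FPKM in parental and 1.29 in S-Exo, against 7.70 in resistant and 6.62 in R-Exo. Around CD9, 3 of 6 compared neighbours were higher and 0 lower. They were LPAR5 (3.34 FPKM in parental and 9.26 in resistant), which encodes a lysophosphatidic acid receptor, ACRBP (1.49 and 6.10) and P3H3 (1.53 and 4.61). ACRBP alone was still higher with the median difference set to 0, and it was the 1 of 7 that was higher in R-Exo against S-Exo, where 0 were lower, or 2 with the median difference set to 0. Around CD53, 5 of 12 neighbours were compared, 0 were higher and 1, the glutathione transferase gene GSTM2, was lower (7.14 FPKM in parental and 1.72 in resistant). With the median difference set to 0, 4 of the 5 were lower, with SORT1 (-1.21), GSTM4 (-1.15) and WDR47 (-1.16) added. In R-Exo against S-Exo 3 of 5 were lower, GSTM2 (-1.53), GSTM4 (-1.05) and SORT1 (-1.04), and all 5 were below 0. In resistant against parental 4 of the 5 were below 0. The median over all compared genes was 0.21 in R-Exo against S-Exo and 0.42 in resistant against parental.

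CD36 and ABCB1 lie on the same chromosome, with 7.34 Mb between their starts. No other gene of the table starts within 2 Mb of CD36. Of the 4 table genes between CD36 and KIAA1324L, only SEMA3A was compared, and it was not counted (1.35 FPKM in parental and 0.279 in resistant, a difference of -0.88). The others were under the 1 FPKM limit. They were GRM3, 6.27 Mb from CD36 (0.0474 FPKM in parental and 0.629 in resistant), PCLO (0.0632 and 0.00404) and SEMA3E (0.421 and 0.0311). From KIAA1324L, 6.69 Mb from CD36, to the table gene 12.9 Mb away, 27 of 28 compared genes were higher in resistant and 1 was lower. In the 10 Mb on the other side of CD36, 0 of 8 compared genes were higher and 1 was lower, and all 8 differences were below 0 (-0.36 to -1.07). The median over all compared genes was 0.42. These 8 genes start at -7.92 to -3.97 Mb from CD36, and SEMA3A at 4.12 Mb. With the median difference set to 0, 7 of the 8 and SEMA3A (-1.30) were lower, and after quantile normalization 3 of the 8 and SEMA3A (-1.01). Over the table, 28% of the 2151 compared genes were higher and 18.1% lower. With the median difference set to 0, 755 of them were lower, and after quantile normalization 534. The compared table genes nearest to CD36 on both sides thus differed in its direction, by less than CD36 did. CD36 was lower, so by definition it was not part of the run of higher genes that holds ABCB1. The stretches and the genes KIAA1324L, SEMA3A, GRM3, PCLO and SEMA3E were chosen after the values were seen. The start of the run depends on the 1 FPKM limit, and the far end of its stretch was set at a fixed distance from ABCB1.

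**Figure D4:**
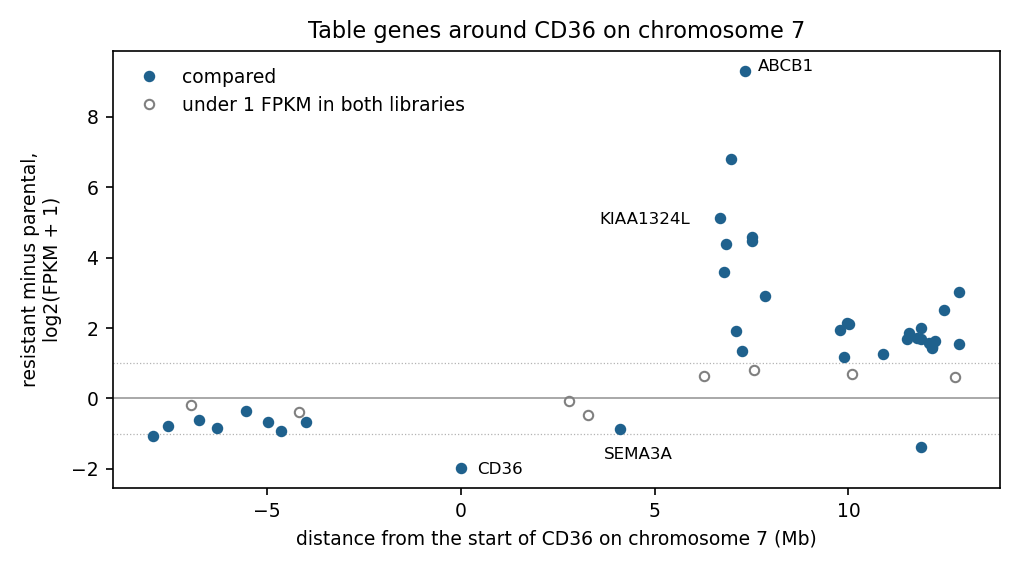
Resistant minus parental difference on the log2(FPKM + 1) scale (y axis) of the table genes on chromosome 7, by the distance of their start from that of CD36 in Mb (x axis). Filled points are compared genes and open points have under 1 FPKM in both libraries. CD36 lies at -1.98, and the run of higher genes with ABCB1 at 9.32 begins 6.69 Mb away among the compared genes.

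The genes whose pattern over the 4 libraries was most like that of each member were found by the Euclidean distance between profiles of log2(FPKM + 1) centred on their mean. The 1600 other named genes with at least 1 FPKM in a library were searched. For ITGA2B they were AGPAT4 (distance 0.09), CD3D (0.09) and ERVMER34-1 (0.13), against a median distance of 2.62. AGPAT4, an acyltransferase gene of phospholipid synthesis, had 3.05 and 3.26 FPKM in parental and S-Exo and 24.1 and 22.3 in resistant and R-Exo. For CD36 they were AL139300.1 (0.14), CAB39L (0.14) and ZNF569 (0.17), all under 3 FPKM at their highest and therefore unlike CD36 in level. In resistant AL139300.1 and ZNF569 were listed at 0 and CAB39L had 0.0365 FPKM, so their plain ratios were unlike that of CD36 as well. For CD9 they were ZNF695 (0.07), ANKRD20A2 (0.08) and PAX6 (0.09). ZNF695 had 4.82, 4.20, 0.734 and 0.777 FPKM. For CD53 they were TMEM14A (0.09), TEX19 (0.10) and CLCN2 (0.14), and CLCN2, a chloride channel gene, had 7.42, 7.44, 2.12 and 1.84 FPKM. Within a distance of 0.25 lay 10 genes for ITGA2B, 19 for CD36, 30 for CD9 and 20 for CD53. None of the 12 nearest genes was another member. On this scale a low gene can be near a member with another plain ratio. ERVMER34-1 was listed at 0 in parental and had 4.89 FPKM in resistant, and PAX6 had 2.18 and 0.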

How the data were processed

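Poly-A RNA of 4 K562 libraries, 1 per group, was sequenced, and the values come from 1 table of FPKM values that the authors deposited. The table's name gives the unit. The submitters' processing notes list SAMtools 0.1.18, TopHat2, GATK and Picard, with no role. Not given in the sources used here were the genome build, annotation, counting tool and the rule that selected the genes. Depth is unknown: 195 low genes gave 188 distinct ratios between parental and S-Exo at 3 decimals, so no steps of whole reads were seen and no interval is given.

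Libraries were matched to groups by their labelled names. The log2 of (FPKM + 1) was subtracted between libraries (pandas 2.3.3), a gene was compared if either library had at least 1 FPKM, and no p-value was computed. Of 2288 Ensembl identifiers all were found in GENCODE release 29, and 2283 had the same symbol. The members and the 12 gene lists were chosen with earlier results of these data known. Named genes are the members, all listed tetraspanins and integrins, at most 4 of each other list with the largest differences, the 3 nearest patterns per member, neighbours within 2 Mb and ABCB1. Further listed genes were named after their values were seen: GP6, ESAM, CD226, GP1BA, GP1BB, PRKAR2B, ACSL1, ACSL6, CPT2, LYL1, HBZ and TFRC. Alternatives were another pseudocount, other filters, re-scaling and quantile normalization. The calculation was tested on simulated data.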

Additional observations from a re-analysis of the deposited data

How the results depend on the processing

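Each of the 20 differences of the 4 genes was recomputed with a pseudocount of 0.1, with the median difference set to 0 and with quantile normalization. All 60 values stayed on their side of the 2-fold limit, and 0 changed sign among those past it. The CD9 differences depend most on the pseudocount, because CD9 was under 1 FPKM in resistant and R-Exo: with 0.1 they were -3.14 in resistant against parental, -2.80 in R-Exo against S-Exo and -2.89 in R-Exo against parental. Leaving out a replicate and a paired fit were not possible with 1 library per group.

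The counts of genes past the limit moved with the pseudocount and the filter. In resistant against parental 992 genes were counted, 1516 with a pseudocount of 0.1 and 528 with at least 5 FPKM. In the same order the counts were 955, 1534 and 500 for R-Exo against S-Exo, 951, 1507 and 501 for R-Exo against parental, 49, 126 and 18 for S-Exo against parental, and 53, 160 and 26 for R-Exo against resistant. The re-scaled counts of neighbours, of chromosome 7 stretches and of erythroid genes were chosen after seeing the data. A filter of 5 FPKM leaves fewer genes to compare and leaves out CD9. With 1 library per group and no depth, differences of low genes such as CD9, TSPAN9 and ROM1 are the least certain.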

Other observations

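Some listed genes had values in R-Exo that stood apart from those in resistant, although none that was compared passed the limit between these libraries. Chosen after their values were seen, these were APOE (0.459 FPKM in R-Exo and 1.02 in resistant), PPARA, which encodes a fatty acid-sensing nuclear receptor (1.06 and 0.374), and CPT1B, a carnitine palmitoyltransferase gene (0.80 and 0.291). PPARA and CPT1B had 0.980 and 0.918 FPKM in parental. All these values lie near or under 1 FPKM, where they rest on few fragments, and CPT1B was too low to be compared. The differences were -0.47 for APOE, 0.59 for PPARA and 0.48 for CPT1B. At a higher level, PRKCA differed by -0.54 (118 FPKM in R-Exo and 172 in resistant). In the list of 25 extracellular vesicle genes only CD9 and MFGE8 were in the table. MFGE8, which encodes the vesicle protein lactadherin, had 17.1 FPKM in parental and 18 in S-Exo, against 48.4 in resistant and 43.8 in R-Exo, the reverse of CD9.

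One row near CD9 pairs the Ensembl identifier of GAPDH with the symbol NDUFV1. It had 0.0179 FPKM in parental and 0.141 in S-Exo, against 3.37 in resistant and 2.87 in R-Exo. Which gene these values belong to could not be settled from the table, and the row was left out of the counts of neighbours.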
